A study of Equus caballus with 68 samples.

Results

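The clearance of dying cells by phagocytes (efferocytosis) was examined through 10 genes chosen by symbol: the receptor tyrosine kinases MERTK, AXL and TYRO3, the receptors LRP1, ADGRB1 and TIMD4, the bridging proteins GAS6, PROS1 and MFGE8, and the engulfment adaptor ELMO1. Of these, 8 were found by symbol among 24065 genes with at least 1 read, and MFGE8 and TIMD4 were not analysed here. The genes were followed in RNA-seq libraries of equine bone marrow mononuclear cells (BMNC), a mixture of haematopoietic precursors, lymphocytes, monocytes and few stromal cells. BMNC of 8 Thoroughbred horses (2 mares and 6 geldings, 3 to 9 years old, median 5 years) were sampled at 0 h, before culture, and after 48 h, 96 h, 6 d and 10 d in the same animal's cell-free synovial fluid. That fluid came either from normal joints (SF) or from joints inflamed by an injection of lipopolysaccharide (ISF). There were 68 libraries in 9 groups of 7 or 8, each library being 1 horse in 1 fluid at 1 time. The horse Moon had no 48 h libraries and the horse Flash had none at 10 d. No cell type was sorted, so a rise or fall below can be a change in the share of a cell type or in RNA per cell, and these cannot be told apart.

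A phagocyte recognises a dying cell by phosphatidylserine, a lipid that living cells keep on the inner face of the plasma membrane. Some receptors (TIMD4, ADGRB1) bind this lipid directly. The kinases TYRO3, AXL and MERTK need a bridge: GAS6 binds all of them and PROS1 binds MERTK and TYRO3, and both bridges attach to phosphatidylserine after a vitamin K dependent modification. MFGE8 links the lipid to integrins, and LRP1 recognises calreticulin and other opsonins. ELMO1 works with DOCK1 below ADGRB1 and other receptors to activate RAC1, which drives the membrane around the corpse. In tissues MERTK is known as a receptor of resident and resolving macrophages, AXL as one that inflammation can induce in macrophages and that stromal cells also use.

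Expression is given as GeTMM, a unit corrected for gene length and library size, so that levels can be set side by side between genes as well as between libraries. Reads on genes per library, counted in units of 1e+06, ranged from 15.7 to 36.0 (median 22.4). One read was worth at most 0.0432 GeTMM in any of the 8 genes, and the limit that 3 reads set was at most 0.130 GeTMM. Changes were tested on log2(GeTMM + 1) with limma over 14570 genes and called at a false discovery rate (FDR) under 0.05. The added 1 (pseudocount) compresses log2 changes at low levels, as for GAS6, PROS1, AXL in culture and CX3CR1. For example, mean GAS6 at 0 h was 3.70 times that in ISF at 48 h, beside a log2 change of -0.87. Mean PROS1 in SF at 96 h was 4.08 times that at 48 h, beside a log2 change of 1.01. Of the 8 genes, 6 passed the filter on low values (at least 0.5 GeTMM in at least 7 libraries). TYRO3 and ADGRB1 did not, and were at most 0.620 and 0.789 GeTMM. The markers of macrophages (CD68, CD163, MRC1, MSR1 and GPNMB) rose from a summed 165 to 279 GeTMM at 0 h to 11129 to 18889 in ISF and 10350 to 27099 in SF at 10 d. Over 200 genes that differ between horses, 66 of 68 libraries lay closest to their labelled horse, while the ISF 96 h libraries labelled Dealings and Dreamer lay closest to each other's horse. Leaving both out changed no call of these genes. The fit with horse as a term, counts of horses that involve ISF at 96 h and fits without Dealings or Dreamer use the labels as given. The SF 6 d library of Moon stood apart from all others: its median level over genes differed by -0.57 on the log2 scale from that of the series (range of the others -0.12 to 0.08). Some results for AXL, LRP1, GAS6 and ELMO1 are given with and without it. All other values of SF at 6 d include it, as do the counts and shares of genes called at 6 d.

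**Figure D1:**
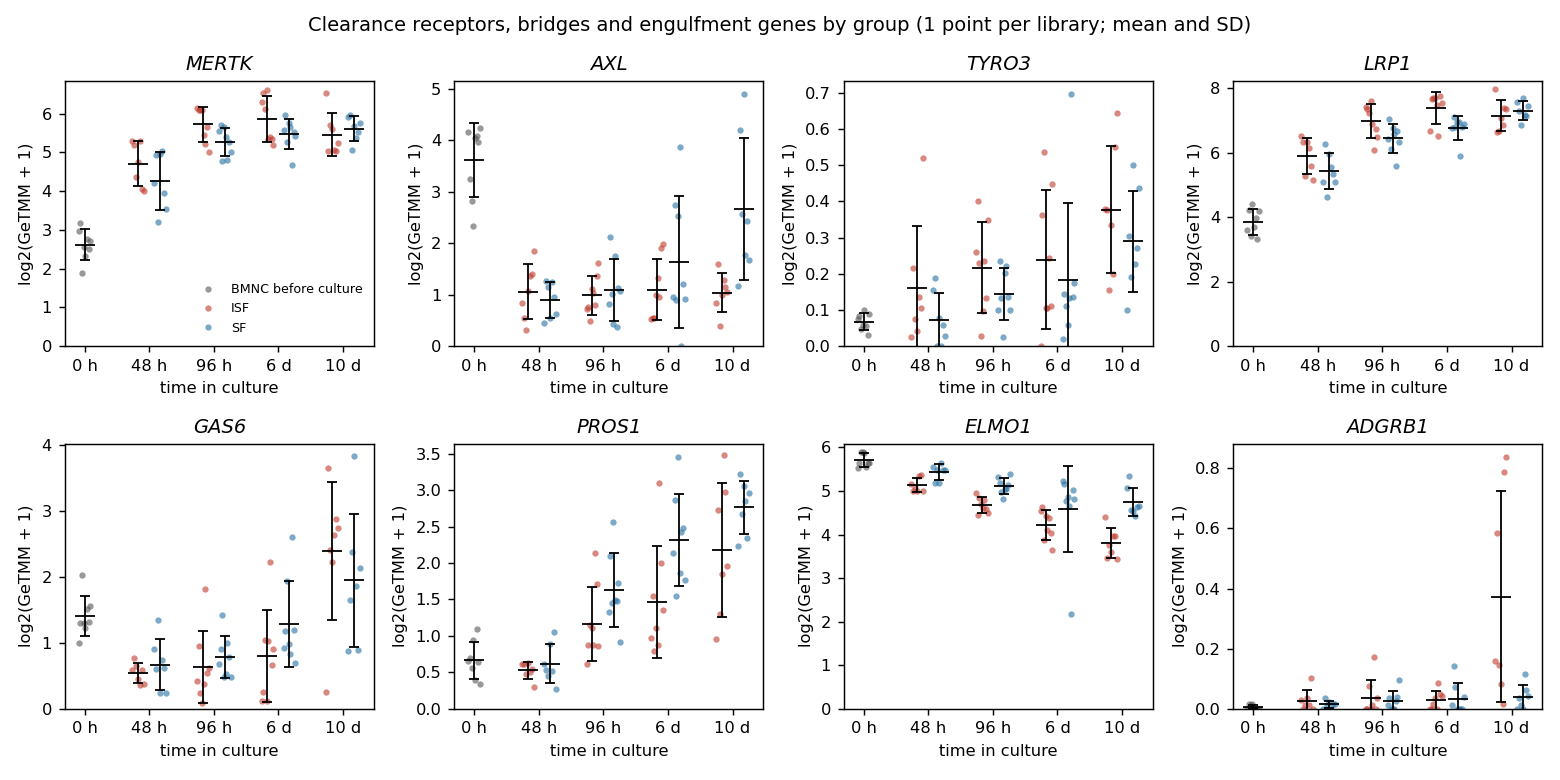
Expression of the 8 genes found, as log2(GeTMM + 1), by time in culture, with 1 point per library (grey: before culture, red: ISF, blue: SF) and the mean and SD of each group; the axis range differs between panels. MERTK and LRP1 rose from 0 h to 96 h in both fluids, AXL fell within 48 h, and ELMO1 fell over time and was lower in ISF at 10 d.

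MERTK (ENSECAG00000023970), the kinase receptor of clearance by macrophages, rose strongly in both fluids. It was 2.71 to 8.12 GeTMM at 0 h (median 5.23). At 48 h it was 15.0 to 38.4 in ISF (median 25.8) and 8.23 to 31.7 in SF (median 17.4). No cultured library overlapped the range before culture, and the mean level at 48 h was 5.04 times that at 0 h in ISF and 3.81 times in SF. The rise was called in both fluids (log2 change 2.09, SE 0.25, limma FDR = 2.14e-10 in ISF, and 1.65, SE 0.25, FDR = 1.81e-07 in SF) and was seen in 7 of 7 horses in each. A further rise of 1.02 in ISF (FDR = 0.0023) and 1.01 in SF (FDR = 0.00151) followed by 96 h, again in 7 of 7 horses. No later step was called in either fluid. MERTK was 35.3 to 96.4 GeTMM in ISF and 24.4 to 61.3 in SF at 6 d, and 31.6 to 92.0 and 32.4 to 61.6 at 10 d. The fluids overlapped at every time. The mean of MERTK was higher in ISF than in SF by 0.44, 0.45 and 0.37 on the log2 scale at 48 h, 96 h and 6 d, with 6 of 7, 7 of 8 and 5 of 8 horses higher in ISF. At 10 d the difference was -0.15, with 2 of 7 horses higher. None of these differences was called (FDR = 0.46, 0.26, 0.261 and 0.741).

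AXL (ENSECAG00000011471), the second kinase of this family, went the other way. It was 4.05 to 17.8 GeTMM at 0 h (median 15.0). At 48 h it was 0.238 to 2.62 in ISF (median 1.11) and 0.372 to 1.41 in SF (median 0.935), with no overlap with 0 h. The fall was called in both fluids, by 2.56 on the log2 scale in ISF (SE 0.39, limma FDR = 1.29e-07) and 2.72 in SF (SE 0.39, FDR = 4.1e-08), and was seen in 7 of 7 horses in each. In ISF it then stayed low: it was 0.401 to 2.08 GeTMM at 96 h, 0.433 to 2.95 at 6 d and 0.308 to 2.01 at 10 d. In SF it was 0.300 to 3.35 at 96 h and spread out later, from 0 to 13.5 at 6 d and from 1.23 to 29.0 at 10 d (median 4.43). The library at 0 was that of Moon.

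By 10 d AXL was lower in ISF than in SF in 7 of 7 horses, the widest gap between fluids among the 6 genes tested. The mean level was 7.88 times higher in SF, or 4.76 times without Lurie, and the log2 difference was -1.63 (SE 0.41, limma FDR = 0.00226). The call was kept in each of the 17 alternative analyses. The main fit holds 1 spread per gene for all 9 groups. The SD of log2(GeTMM + 1) of AXL at 10 d was 1.38 in SF and 0.374 in ISF. Its difference within horses had an SD of 1.33 (n = 7). The SE therefore does not measure the spread of SF at 10 d alone. Between 48 h and 10 d the difference between fluids moved by -1.80 (SE 0.58), which was not called (FDR = 0.0657), while with horse as a paired term it was (FDR = 0.0212) and without the SF 6 d library of Moon (FDR = 0.0367), without Moon altogether (FDR = 0.0276) and with library weights (FDR = 0.0497) it was too. Over the whole culture AXL fell in ISF by 2.57 (FDR = 4.11e-08, 7 of 7 horses). In SF it fell by 0.94 (FDR = 0.0302, 5 of 7 horses). This last call was lost without Catnip (FDR = 0.206), Moon (0.116), Ollie (0.0895) or RimRun (0.155), with the groups fitted alone (0.107) and with a pseudocount of 0.1 (0.091).

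Several SF libraries at 10 d also held stromal transcripts. The 5 fibroblast or stromal markers (COL1A1, COL1A2, COL3A1, DCN and LUM, all found) summed to 0.406 to 4038 GeTMM in SF at 10 d (median 27.6), against 0.123 to 49.2 in ISF (median 0.526). In the SF 10 d library of Lurie AXL was 29.0 GeTMM and the markers summed to 4038, and in that of Dealings they were 17.3 and 123. Dreamer held 517 GeTMM of the markers with AXL at 4.90, whereas Moon held 0.406 with AXL at 2.42. At 0 h the markers summed to 0.709 to 10.3, with AXL higher than in most cultured libraries. At 48 h, where AXL had fallen, they summed to 0.0371 to 0.528 in ISF and 0.0437 to 2.04 in SF. The 4 of 5 erythroid markers found went from 76.2 to 1230 GeTMM at 0 h to 0.910 to 11.8 in ISF and 0.796 to 27.0 in SF at 48 h. The part of stromal or erythroid cells in the AXL fall and difference was not tested.

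**Figure D2:**
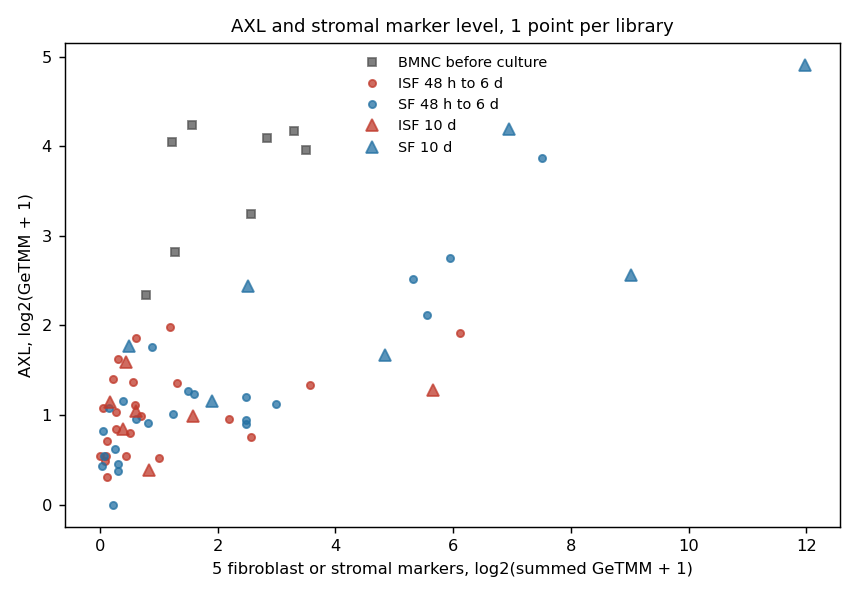
AXL, as log2(GeTMM + 1), against the summed level of 5 stromal markers on the same scale, 1 point per library (grey squares: before culture, red: ISF, blue: SF, triangles: 10 d). The SF 10 d libraries span 0.406 to 4038 GeTMM of the markers and 1.23 to 29.0 of AXL, while the libraries before culture hold high AXL at up to 10.3 GeTMM of the markers.

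TYRO3 (ENSECAG00000017862), the remaining kinase of the family, was scarce throughout. It was 0.0223 to 0.0716 GeTMM at 0 h, which was 1 to 5 reads a library. At 10 d it was 0.113 to 0.562 in ISF (7 to 32 reads) and 0.0708 to 0.414 in SF (5 to 23 reads), higher than at 0 h in 7 of 7 horses in each fluid. With the filter on low values left out, limma called this rise in both (log2 change 0.31, FDR = 0.000277 in ISF, and 0.22, FDR = 0.00971 in SF), on a scale that the pseudocount of 1 compresses at such levels. The difference between fluids was called at no time in that fit (FDR = 0.567 to 0.815). It holds 1 spread per gene for all groups, while the SD of log2(GeTMM + 1) of TYRO3 differed between them. That SD was 0.0229 at 0 h, and 0.175 in ISF and 0.139 in SF at 10 d.

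The balance of the kinases turned over between 0 h and 48 h. MERTK made up 32.2% ± 12.5 (SD, n = 8) of the summed GeTMM of MERTK, AXL and TYRO3 before culture, and AXL lay above MERTK in all horses but 1. In the 60 cultured libraries MERTK lay above AXL without exception. Its share was 94.2% ± 5.70 in ISF and 94.6% ± 3.68 in SF at 48 h (n = 7 each). At 10 d it was 96.4% ± 2.16 in ISF and 86.5% ± 12.3 in SF (n = 7 each), with the lowest cultured share, 63.1%, in SF at 10 d.

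**Figure D3:**
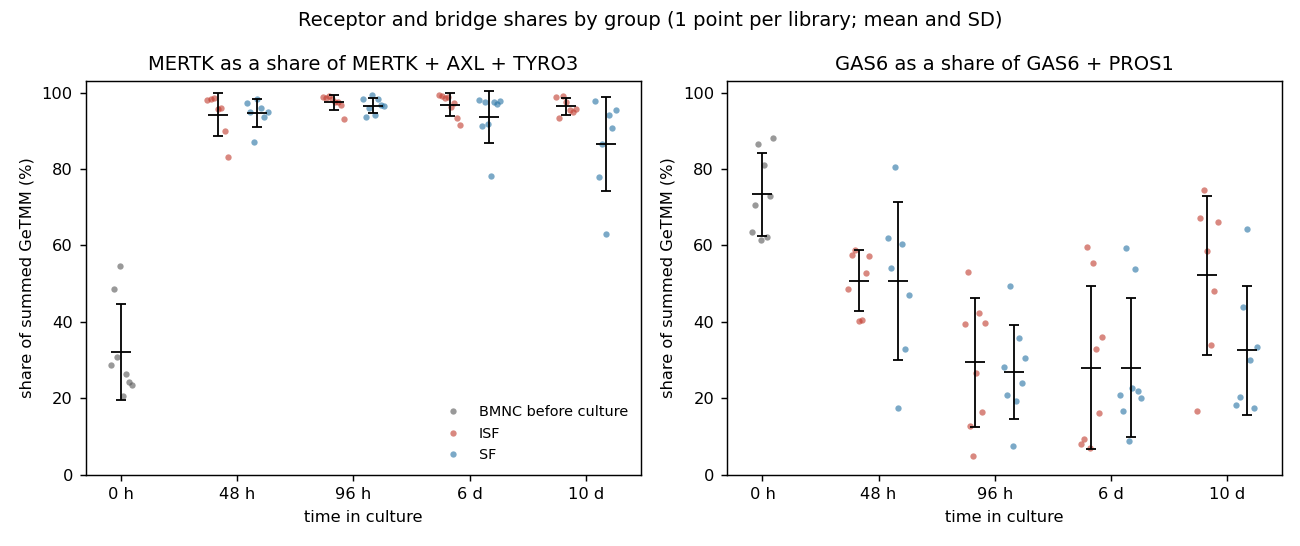
MERTK as a percent of the summed GeTMM of MERTK, AXL and TYRO3 (left) and GAS6 as a percent of GAS6 and PROS1 (right), 1 point per library with the mean and SD of each group (grey: before culture, red: ISF, blue: SF). The MERTK share is 20.6% to 54.7% at 0 h and at least 63.1% in culture, and the GAS6 share falls from a mean of 73.3% at 0 h to 26.9% in SF at 96 h.

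LRP1 (ENSECAG00000012166), a large endocytic receptor that takes up cells marked by calreticulin, lay above MERTK in every library and rose with it. It was 9.05 to 20.4 GeTMM at 0 h (median 13.4). It reached 34.6 to 91.1 in ISF and 23.9 to 76.6 in SF at 48 h, with no overlap with 0 h, and 67.2 to 194 in ISF and 47.3 to 132 in SF at 96 h. The rises to 48 h (log2 change 2.06 in ISF, limma FDR = 4.24e-11, and 1.57 in SF, FDR = 1.11e-07) and on to 96 h (1.07, FDR = 0.0006, and 1.02, FDR = 0.000608) were called and were seen in 7 of 7 horses each. LRP1 exceeded MERTK by a median of 2.30 to 3.22 times across the groups. By 10 d it was 98.5 to 254 GeTMM in ISF (median 135) and 115 to 207 in SF (median 157).

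Within horses, LRP1 in ISF lay above SF in 7 of 7 horses at 48 h, 8 of 8 at 96 h and 7 of 8 at 6 d, but in only 2 of 7 at 10 d. At 6 d it was 90.1 to 216 GeTMM in ISF (median 194) and 59.3 to 138 in SF (median 114), so the fluids overlapped. The difference of 0.60 (SE 0.23) was called (limma FDR = 0.0372), but the call was lost in 11 of 17 alternatives. It was lost without the SF 6 d library of Moon (0.48, FDR = 0.0951) and without each of Dealings, Dreamer, Flash, Lurie, Ollie and RimRun (FDR = 0.0509 to 0.106). At 96 h the difference of 0.53 was not called (FDR = 0.128) and was with horse as a paired term (FDR = 0.0388). That paired fit takes the labels of Dealings and Dreamer in ISF at 96 h as given. In SF the further rise from 6 d to 10 d, by 0.54 (FDR = 0.163), was also called only in the paired fit among the 17 alternatives (0.60, FDR = 0.0379), with 7 of 7 horses higher.

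The rises of MERTK and LRP1 went with those of the macrophage markers, whose sum was 4780 to 9331 GeTMM in ISF and 5671 to 12946 in SF at 48 h. At 6 d the markers summed to 10069 to 14012 in ISF and 10788 to 31736 in SF, with overlapping ranges. That sum followed GPNMB (mean 5597 GeTMM in ISF and 14734 in SF at 6 d), while MSR1 (1176 and 245) and CD163 (1266 and 796) had higher means in ISF. The mean log2 level of the 5 markers was 10.38 ± 0.32 (SD, n = 8) for ISF libraries and 10.02 ± 0.41 (n = 8) for SF libraries. Their part in the changes of both receptors was not tested.

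ADGRB1 (ENSECAG00000031963), a phosphatidylserine receptor that signals through ELMO1, was near the limit of detection at first. At 0 h it had 3 reads over 8 libraries and was at 0 in 5 of them, which allows at most 0.0392 GeTMM in those libraries. Up to 6 d no library exceeded 0.126 GeTMM. In ISF at 10 d it was 0.0101 to 0.789 GeTMM, with the most in RimRun, Ollie and Dealings (82, 60 and 52 reads) and a median of 12 reads. In SF at 10 d it was 0 to 0.0827 (0 to 8 reads). ISF lay above SF in 6 of 7 horses, Moon being the exception, and the ranges overlapped. With the filter on low values left out, limma called the difference between fluids at 10 d (0.34, SE 0.06, FDR = 8.27e-05). It also called the rise from 6 d to 10 d in ISF (0.34, FDR = 8.64e-05) and the move of the fluid difference between 48 h and 10 d (0.32, FDR = 0.0402). That fit holds 1 spread per gene for all 9 groups. The SD of log2(GeTMM + 1) was 0.352 in ISF at 10 d and at most 0.0603 in the other groups. These SE and FDR values therefore do not measure the spread of ISF at 10 d. Within horses the difference at 10 d was 0.34 with an SD of 0.35 (n = 7), on a scale compressed at such levels.

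GAS6 (ENSECAG00000000014), the bridge that all of these kinases bind, fell early and rose late in ISF. It was 1.00 to 3.09 GeTMM at 0 h (median 1.49) and 0.288 to 0.706 in ISF at 48 h (median 0.505), with no overlap. That fall of 0.87 was called (limma FDR = 0.0192, 7 of 7 horses lower), though not without Dreamer (FDR = 0.0576) or RimRun (FDR = 0.0587). In SF it was 0.179 to 1.53 GeTMM at 48 h, and the difference of -0.74 from 0 h, also in 7 of 7 horses, was not called (FDR = 0.0525). It was called in 8 of the 17 alternatives, among them those without Catnip (FDR = 0.0234), without Moon (FDR = 0.0421) and without the SF 6 d library of Moon (FDR = 0.0392).

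From 6 d to 10 d GAS6 rose in ISF in 7 of 7 horses. It went from 0.0835 to 3.69 GeTMM (median 0.732) to 0.188 to 11.5 (median 5.18), a mean ratio of 5.53 (9.39 without Moon), and the log2 change of 1.60 (SE 0.32) was called (limma FDR = 0.00037). At 10 d the ISF library of Catnip, at 0.188, lay far under the others, of which the lowest was 3.67. The rise in Catnip was from 3 to 6 reads, a log2 difference of 0.13. In SF GAS6 was 0.612 to 5.05 GeTMM at 6 d, with the highest value in Moon. It was 0.828 to 13.2 at 10 d, with the highest value in Lurie. The rise of 0.66 was not called (FDR = 0.209, 4 of 7 horses higher), nor in any of the 17 alternatives. The difference between those rises, 0.94, was not called either (FDR = 0.345). Over the whole culture GAS6 rose in ISF by 0.99 (FDR = 0.0048, 6 of 7 horses) and by an uncalled 0.54 in SF (FDR = 0.127). The call in ISF was lost with a pseudocount of 0.1 (FDR = 0.0646) and with limma voom on the recovered reads (FDR = 0.0545). At no time was GAS6 called between fluids.

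PROS1 (ENSECAG00000016509), protein S, the bridge of MERTK and TYRO3 and otherwise known as an anticoagulant, rose in both fluids by 10 d and was lower in ISF at 6 d. It was 0.260 to 1.13 GeTMM at 0 h (median 0.567), and at 48 h 0.228 to 0.550 in ISF and 0.202 to 1.08 in SF, within or near the range before culture. From 48 h to 96 h it rose in SF by 1.01 (SE 0.28, limma FDR = 0.00349, 7 of 7 horses) to 0.888 to 4.90 GeTMM. In ISF it was 0.528 to 3.40 at 96 h, and the change of 0.64 was not called (FDR = 0.097). It was called in 3 of the 17 alternatives, those with a pseudocount of 0.1 (FDR = 0.0183), with the groups fitted alone (FDR = 0.0201) and with library weights (FDR = 0.0437). At 10 d it was 3.70 to 8.35 in SF (median 6.20) and 0.942 to 10.1 in ISF (median 2.89). From 0 h to 10 d the rise was 2.10 in SF (FDR = 8.91e-10), with no overlap, and 1.52 in ISF (FDR = 1.81e-06), in 7 of 7 horses each.

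Between fluids PROS1 was lower in ISF at 6 d. It was 0.728 to 7.55 GeTMM in ISF (median 1.35) and 1.93 to 9.91 in SF (median 3.87), with an overlap that came from Moon and Ollie in ISF, at 7.55 and 3.01. The log2 difference was -0.85 (SE 0.27, limma FDR = 0.0113) and 7 of 8 horses were lower in ISF. It was not called without Flash (-0.63, FDR = 0.081), whose SF library was the highest, nor with the groups fitted alone (FDR = 0.102). At 10 d the difference of -0.58 was not called (FDR = 0.141, 5 of 7 horses lower), while it was with horse as a paired term (FDR = 0.0467) and without Moon (FDR = 0.0191). The rise from 6 d to 10 d in ISF, by 0.71 (FDR = 0.0901), was likewise called in the paired fit (0.75, FDR = 0.0124) and without Moon (FDR = 0.0386).

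By 96 h the bridges had changed places in most libraries. GAS6 made up 73.3% ± 10.9 of the summed GeTMM of GAS6 and PROS1 at 0 h (n = 8) and lay above PROS1 in every horse. At 96 h its share was 29.4% ± 16.9 in ISF and 26.9% ± 12.4 in SF (n = 8 each), and PROS1 lay above GAS6 in 7 and 8 of the 8 libraries. These shares rest on few reads of GAS6, 2 to 97 a library in ISF (median 14.5) and 15 to 83 in SF (median 29). At 10 d the share was 52.1% ± 20.7 in ISF and 32.5% ± 16.9 in SF (n = 7 each), with PROS1 above GAS6 in 3 and 6 of the 7 libraries. The sum of both bridges was 2.32 ± 0.672 GeTMM at 0 h, 0.906 ± 0.226 in ISF at 48 h, and 9.63 ± 5.79 in ISF and 9.88 ± 5.31 in SF at 10 d.

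ELMO1 (ENSECAG00000019233), the adaptor that activates RAC1 together with DOCK1, fell over the culture in both fluids and was lower in ISF at 10 d. It was 45.4 to 58.7 GeTMM at 0 h (median 49.3), higher than in any cultured library of ISF. In ISF it was 30.8 to 39.98 at 48 h, 20.7 to 30.0 at 96 h, 11.6 to 24.0 at 6 d and 9.89 to 20.3 at 10 d. In SF it was 35.1 to 49.2 at 48 h, 27.1 to 40.9 at 96 h, 3.55 to 36.3 at 6 d and 20.6 to 39.6 at 10 d. The value of 3.55 was the library of Moon, and the next lowest at 6 d was 24.3.

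From 0 h to 10 d ELMO1 fell by 1.91 in ISF (SE 0.21, limma FDR = 2.46e-12) and by 0.97 in SF (SE 0.21, FDR = 5.28e-05), in 7 of 7 horses in each and with no overlap. At 10 d the fluids did not overlap, and ISF lay under SF in 7 of 7 horses (-0.95, SE 0.22, FDR = 0.000852, mean ratio 2.00 in favour of SF). ELMO1 was also lower in ISF in 7 of 7 horses at 48 h (-0.29, FDR = 0.588), 8 of 8 at 96 h (-0.44, FDR = 0.168) and 7 of 8 at 6 d (-0.38, FDR = 0.161), none of them called. Without the SF 6 d library of Moon, the differences at 96 h (-0.44, FDR = 0.00856) and 6 d (-0.72, FDR = 7.5e-06) were called, as was the widening of the gap from 48 h to 10 d (-0.65, FDR = 0.0203, against 0.258 with it). The fall to 48 h in ISF, by 0.58 (FDR = 0.0169), was lost without Dreamer (FDR = 0.0574) or Flash (FDR = 0.0566). From 48 h to 96 h in ISF (-0.46, FDR = 0.127), 96 h to 6 d (-0.47, FDR = 0.17) and 6 d to 10 d (-0.41, FDR = 0.239) no step was called, and each was without the library of Moon (FDR = 0.00414, 0.00693 and 0.0167). With Moon left out of every group the differences at 96 h (FDR = 0.0107) and 6 d (FDR = 1.24e-05) were called as well, and so was the fall to 48 h in SF (-0.31, FDR = 0.0472, against 0.277 with Moon).

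Markers of T cells and neutrophil precursors also had lower mean log2 levels at 10 d than at 0 h, and at 10 d lower ones in ISF than in SF. The 5 T cell markers (CD3D, CD3E, CD3G, CD2 and LCK, all found) summed to 127 to 321 GeTMM at 0 h, and at 10 d to 4.33 to 14.8 in ISF and 23.5 to 199 in SF. The 6 of 8 neutrophil precursor markers found summed to 11356 to 20997 at 0 h, 0.759 to 63.7 in ISF and 2.15 to 1648 in SF at 10 d. At other times the marker lists did not move alike. In SF the mean log2 level of the T cell markers was 4.25 at 48 h and 4.09 at 10 d. That of the neutrophil precursor markers was 8.11 and 3.98, and mean ELMO1 went from 42.3 to 26.5 GeTMM. At 48 h, where ELMO1 was lower in ISF, the T cell markers were at 3.79 ± 0.61 (SD, n = 7) in ISF and 4.25 ± 0.89 (n = 7) in SF. The neutrophil precursor markers were then at 8.33 ± 0.89 (n = 7) in ISF and 8.11 ± 0.85 (n = 7) in SF. The part of these cells in the ELMO1 difference was not tested.

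Of the 6 genes tested, at most 2 were called between fluids at any time. At 48 h limma called 0 of 6, with 0 at an unadjusted p under 0.05 and 0 with limma voom, where 1.68% of all genes tested were called (0.872% higher and 0.81% lower). At 96 h it called 0 of 6, with LRP1 and ELMO1 at an unadjusted p under 0.05 and 0 with limma voom, against 10.5% of all genes (6.16% higher in ISF and 4.3% lower). At 6 d it called LRP1, which was higher in ISF, and PROS1, which was lower, where 30.2% of all genes were called (16.7% higher and 13.6% lower). At 10 d it called AXL and ELMO1, both lower, where 20.8% of all genes were called (9.95% higher and 10.8% lower). The median log2 difference of the 6 genes was 0.04, -0.13, -0.43 and -0.37 at these times, and that of all genes tested was -0.02, 0.00, 0.00 and -0.02.

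**Figure D4:**
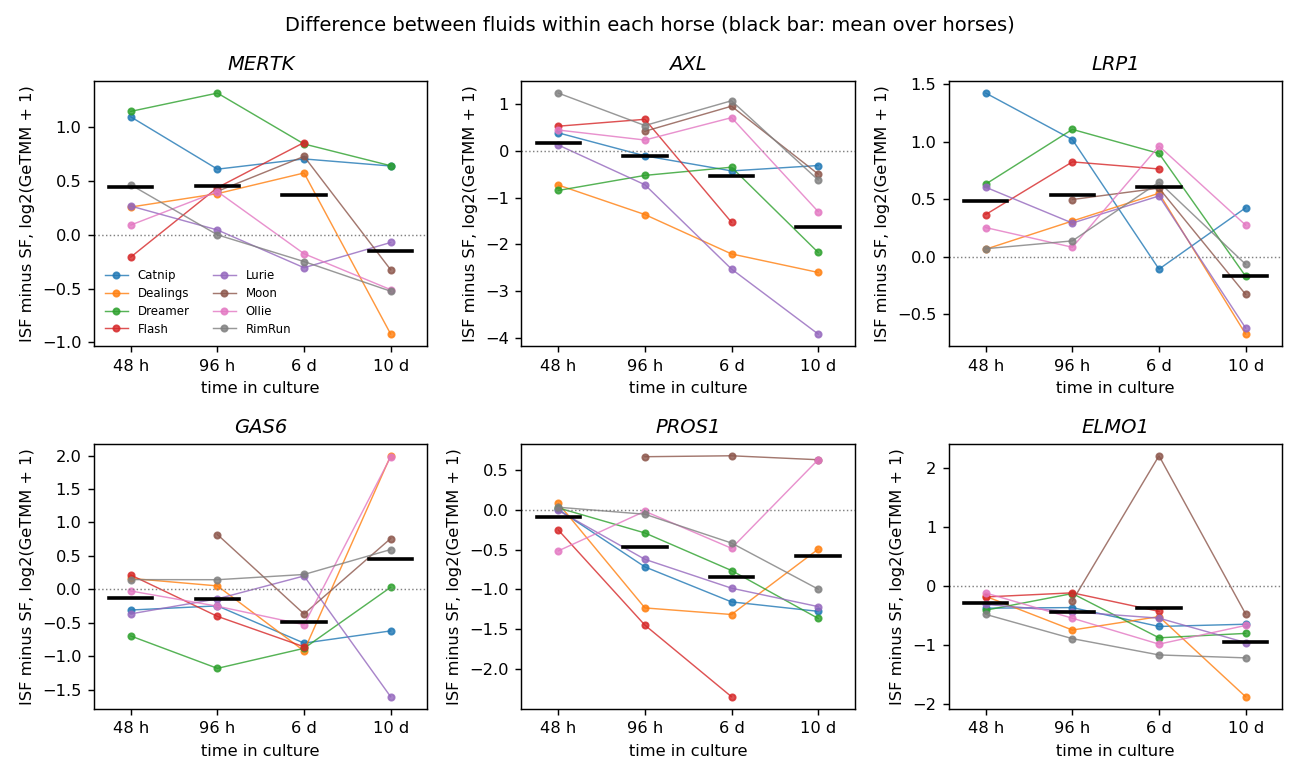
Difference between fluids within each horse, ISF minus SF on log2(GeTMM + 1), by time in culture; each line is 1 horse, each black bar the mean over horses and the dotted line no difference. AXL and ELMO1 lie under 0 in all 7 horses at 10 d, and LRP1 lies above 0 in all 8 horses at 96 h; the ELMO1 point far above 0 at 6 d is Moon.

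Over time the called members were more. In the first 48 h limma called 5 of 6 in ISF (2 higher and 3 lower, against 52.7% of all genes, 25.3% higher and 27.4% lower) and 3 of 6 in SF (2 higher and 1 lower, against 45.4%, 22.3% higher and 23.1% lower). From 48 h to 96 h it called 2 of 6 in ISF (19.0% of all genes, 8.54% higher and 10.4% lower) and 3 of 6 in SF (27.3%, 11.5% higher and 15.8% lower), all of them higher. From 96 h to 6 d it called 0 of 6 in ISF and 0 of 6 in SF, with 1 and 2 at an unadjusted p under 0.05 and 0 with limma voom (6.38% and 2.05% of all genes). From 6 d to 10 d GAS6 was called in ISF, where it was higher (10.5% of all genes, 5.09% higher and 5.44% lower). In SF 0 of 6 were called then, with 3 at an unadjusted p under 0.05 (AXL, GAS6 and LRP1), 0 with limma voom and 4.78% of all genes called. Between 0 h and 10 d it called 6 of 6 in ISF (74.5% of all genes, 36.1% higher and 38.4% lower) and 5 of 6 in SF (69.6%, 34.7% higher and 34.9% lower), so that these counts stand against a background that is itself high.

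The change of the fluid difference was called for 0 of 6 genes in every interval. The unadjusted p was under 0.05 for 0 genes from 48 h to 96 h and from 96 h to 6 d, for GAS6 and LRP1 from 6 d to 10 d, and for AXL and ELMO1 from 48 h to 10 d, and limma voom called 0. Of all genes 0.0206%, 0.0%, 0.226% and 2.99% were called in these intervals. A gene called in one fluid or at one time and not in another is therefore not shown to differ between them.

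A wider list of 68 genes of the clearance pathway, other than the 10, gave the setting. Of these 63 were found by symbol and 60 were tested, and ITGAV, HAVCR1, C1QA, XKR8 and SIRPA were not analysed here. In ISF against SF 1 was called higher and 0 lower at 48 h, 7 and 3 at 96 h, 21 and 3 at 6 d, and 8 and 7 at 10 d. Over all genes 0.872%, 6.16%, 16.7% and 9.95% were higher in ISF at these times, and 0.81%, 4.3%, 13.6% and 10.8% lower. In either direction 1.68%, 10.5%, 30.2% and 20.8% were called. The list was not tested against these shares, and nothing particular to it is read from the counts. The median log2 difference of the 60 genes was 0.04, 0.03, 0.19 and 0.04.

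Among the 12 other receptors tested 5 were higher in ISF at 96 h, 7 at 6 d and 5 at 10 d, and 0 were lower, where 6.16%, 16.7% and 9.95% of all genes were higher. They included the scavenger receptors MSR1 and SCARF1, the integrin chain ITGB3 and CD14, each called at all 3 times. MSR1 is also 1 of the macrophage markers used here and CD14 1 of the monocyte markers. MSR1, a scavenger receptor that binds modified lipoproteins, was also the gene of the list that rose most in ISF, from 2.31 to 7.40 GeTMM at 0 h to 856 to 1861 at 10 d (log2 change 7.78, limma FDR = 4.13e-31). TREM2, a lipid receptor of macrophages, rose most in SF, from 2.22 to 8.78 GeTMM to 591 to 996 (7.19, FDR = 8.23e-33). HAVCR2 (TIM-3), a checkpoint and phosphatidylserine receptor, was the 1 gene called at 48 h. It was 1.15 to 6.38 GeTMM in ISF and 0.362 to 1.77 in SF (0.68, FDR = 0.0281), and the call was lost in 8 of 17 alternatives, among them those without Catnip, Dealings, Flash, Lurie or Ollie (FDR = 0.0506 to 0.174).

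Among other bridges, THBS1 (thrombospondin 1), which links dying cells to CD36 and integrins, was the gene lowest in ISF at 96 h, at 0.838 to 13.1 GeTMM against 8.46 to 76.2 in SF (-2.17, limma FDR = 0.00816). C1QB, a chain of complement C1q, was the lowest at 10 d, at 80.2 to 145 in ISF against 79.0 to 1114 in SF (-1.92, FDR = 0.0204). That call was lost without Dealings, Lurie, Ollie or RimRun (FDR = 0.0605 to 0.0878). EDIL3, a relative of MFGE8, was at 0 in all 8 libraries before culture and was 1.23 to 22.8 GeTMM in ISF and 2.52 to 12.1 in SF at 10 d.

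PLAUR, the urokinase receptor, placed among the don't-eat-me signals, was the gene of the list highest in ISF relative to SF at 96 h, 6 d and 10 d. It was 50.2 to 163 GeTMM in ISF and 16.0 to 42.2 in SF at 96 h, 99.7 to 241 and 15.9 to 44.6 at 6 d, and 116 to 282 and 15.5 to 64.4 at 10 d, with no overlap at any of these times. The log2 differences were 1.87, 2.698 and 2.09 (limma FDR = 3.96e-06, 5.28e-11 and 7.49e-07). CX3CR1, the receptor of the find-me signal CX3CL1, was the lowest in ISF of the genes called at 6 d, at 0 to 0.769 GeTMM against 0.598 to 4.13 in SF (-0.87, FDR = 0.0027). PANX1, the channel through which dying cells release nucleotides, fell most over the culture, from 6.58 to 9.61 GeTMM at 0 h to 0.440 to 2.24 in ISF and 0.988 to 3.38 in SF at 10 d (-2.22, FDR = 1.9e-18, and -1.60, FDR = 9.42e-13).

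Partners and downstream genes of the 10 changed over the culture in both directions. From 0 h to 10 d 34 genes of the list were higher and 14 lower in ISF, and 34 and 13 in SF. In either direction this was near the background of 74.5% and 69.6% of all genes called. By direction, 36.1% of all genes were higher and 38.4% lower in ISF, and 34.7% and 34.9% in SF. The counts of the list and of its groups were not tested against these shares. Of the 11 engulfment genes tested 3 were higher and 5 lower in ISF, and 4 and 5 in SF. Those lower in ISF included the ELMO1 relative ELMO2 (-1.75, limma FDR = 4.88e-20), DOCK2 (-1.92, FDR = 2.14e-15) and RAC1 (-0.64, FDR = 5.14e-08), and the higher ones are not named here. Of 16 genes of corpse digestion and lipid handling 10 were higher and 2 lower in ISF, and 9 and 1 in SF. Those higher included LIPA, the lysosomal acid lipase (5.08 in ISF and 5.81 in SF), and NR1H3, the oxysterol receptor LXR alpha (3.63 and 2.83). All 4 genes of receptor shedding and ligand activation were higher in both fluids. Among them were VKORC1 and GGCX, which take part in the vitamin K dependent modification of GAS6 and PROS1. Their log2 changes were 2.24 and 1.06 in ISF and 1.97 and 0.94 in SF. Those of the sheddases ADAM10 and ADAM17 were 1.41 and 0.82 in ISF and 1.08 and 1.37 in SF. SCARF1, ITGB3, CD14 and EDIL3 and these engulfment, digestion and shedding genes were named after their values were seen.

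**Figure D5:**
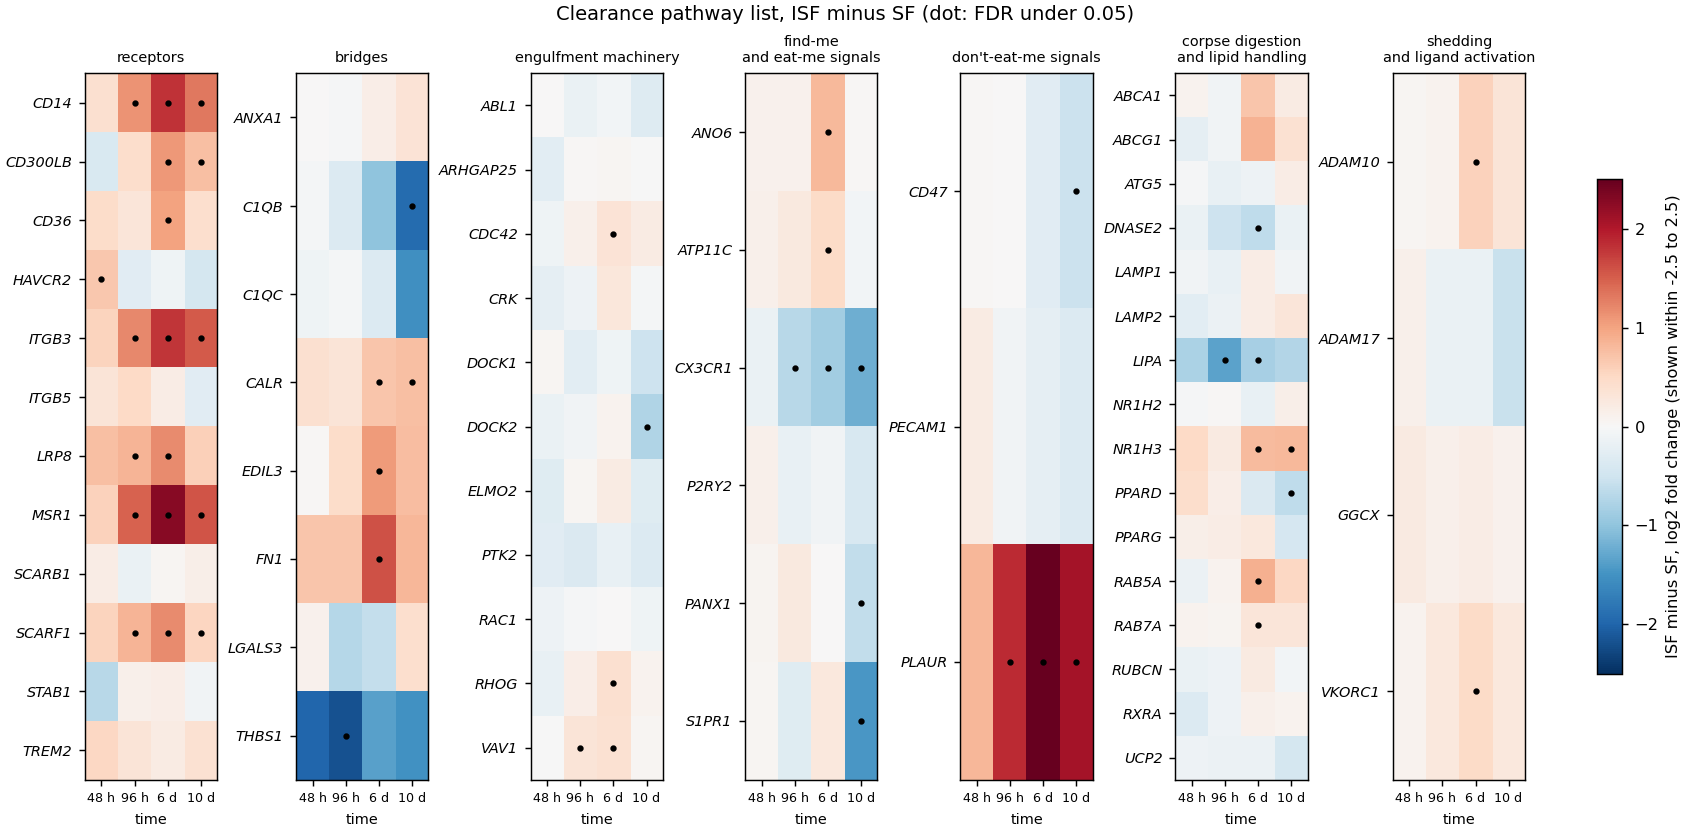
Log2 fold change of ISF over SF for the 60 tested genes of the wider pathway list, by function and time in culture (red: higher in ISF, blue: lower in ISF, black dot: FDR under 0.05, colours end at 2.5 in either direction). The number of genes called rises from 1 at 48 h to 10 at 96 h and 24 at 6 d and is 15 at 10 d, with the called receptors all higher in ISF.

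Across all 68 libraries, which share horses and fluids, MERTK and LRP1 went together (Pearson r = 0.94 on log2(GeTMM + 1), 0.69 after the group means were taken out). AXL had r = -0.45 with MERTK over all libraries and 0.01 within groups. GAS6 and PROS1 had r = 0.56 over all libraries and 0.43 within groups, while GAS6 and MERTK had -0.14 and -0.51. Among the genes most like each member were NRP1 and DAB2 for MERTK (r = 0.96 and 0.94), CXCL12, LDB2 and P3H2 for AXL (0.89, 0.82 and 0.80), and CDC42BPB, BNC2 and FAM149A for LRP1 (0.95, 0.95 and 0.94). They were UCHL1, NAT14 and CCDC8 for GAS6 (0.78, 0.78 and 0.76), PLPP1, DNM3 and TTLL7 for PROS1 (0.84, 0.81 and 0.80), and FLI1, MBOAT1 and PHACTR2 for ELMO1 (0.94, 0.94 and 0.93).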

How the data were processed

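Deposited values were GeTMM, which the authors made from STAR gene counts (STAR 2.7.2a, EquCab 3.0, Ensembl annotation), correcting for gene length (as RPKM does) and scaling libraries by trimmed means. Whether counting used strand is not given in the sources used here. The table lists 30371 genes, 13157 of them without a symbol, so genes were taken by symbol. Whole reads were recovered for all 24065 genes above 0, within 0.02 reads, and gave the depths. Gene sequences were not used here.

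All 68 libraries entered 1 limma fit (limma 3.58.1, R 4.3.3, trend in the prior) of log2(GeTMM + 1) with 9 groups and no horse term. Tests were two-sided and covered the 14570 genes that reached 0.5 GeTMM in 7 or more libraries, with Benjamini-Hochberg adjustment and calls under 0.05. The study's methods used a count model, and limma was used here because the deposited values are not counts. Replicates are horses, 1 library each. Horse pairs the samples (66 of 68 libraries lay closest to their own horse), so a fit with horse as a term was an alternative. Other alternatives were a pseudocount of 0.1, no filter, groups fitted alone, voom on reads, rescaling, library weights and leaving out libraries or horses. Intervals and floors from reads cover counting error only. Members, lists and tests were chosen with earlier results of these data known. Named genes were the members, the called genes of the pathway list with the highest and lowest log2 fold change between fluids at each time and over 0 h to 10 d, and the 3 genes most correlated with each tested member, of which 1 is not reported here. The fit was tested on simulated data.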

Additional observations from a re-analysis of the deposited data

Results flagged for a closer look

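Among 72 combinations of gene and group, 9 held a library far from the rest of its group by Dixon's criterion, which chance alone meets in about 1 of 20. Of these 5 involved the horse Moon. In SF at 6 d its library was the lowest for ELMO1 (3.55 GeTMM, next 24.3) and LRP1 (59.3, next 109) and the highest for TYRO3 (0.620, next 0.129). Moon was also highest for GAS6 in ISF at 6 d (3.69, next 1.07) and for ADGRB1 in ISF at 96 h (0.126, next 0.0537). Catnip was lowest for GAS6 in ISF at 10 d (0.188, next 3.67). RimRun was highest for TYRO3 in ISF at 48 h (0.434, next 0.161) and for ADGRB1 in SF at 96 h (0.0680, next 0.0272), and Ollie for ADGRB1 in ISF at 48 h (0.0739, next 0.0243). The TYRO3 and ADGRB1 values rest on few reads.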

How the results depend on the processing

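Under 17 alternatives no called result changed direction. The sign changed in 15 of 119 gene results, of which 0 were called under any setting (such as ELMO1 from 6 d to 10 d in SF, 0.16, with a range of -0.22 to 0.24). With horse as a replicate block (paired fit) the members called between fluids numbered 6 against 4, and the changes of the fluid difference called numbered 1 against 0; the block lost no call, and the 5 it gained (for AXL, PROS1 and LRP1) stand beside their results. Library weights gave 8 calls between fluids and 2 changes of the fluid difference. Without the SF 6 d library of Moon 2 such changes were called, and with no filter on low values 1 was (ADGRB1). Leaving out 1 horse at a time gave 2 to 7 calls between fluids (2 without Flash, 7 without Moon), 6 to 12 over the intervals in ISF, 6 to 8 over those in SF, 10 to 11 from 0 h to 10 d, and 0 to 2 changes of the fluid difference (2 without Moon). Over the 119 gene results, library weights lost 1 call and gained 13, omission of Moon lost 1 and gained 11, and omission of its SF 6 d library lost 1 and gained 9. Low levels of TYRO3 and ADGRB1, and of GAS6 in some libraries, limit what their reads can show.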
